A study of Mus musculus with 3 samples.

Results

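The nuclear genes for subunits of the mitochondrial respiratory chain and ATP synthase were examined in macrophages grown from mouse bone marrow. Members were the genes whose symbol starts with Ndufa, Ndufb, Ndufc, Ndufs or Ndufv and a digit, with Uqcr, with Cox4 to Cox8 or with Atp5, together with Sdhb, Sdhc and Sdhd, provided that the annotation gives them at least 1 protein-coding transcript. The rule used names only, no measured value. It gave 84 genes of the 55536 in the gene tables, with 83 distinct symbols, because Atp5o has 2 entries. A further 12 genes matched by name without a protein-coding transcript, 10 of them processed pseudogenes that the files list at under 5 TPM in every library. The other two were Ndufb4c, a processed pseudogene, and Ndufb1-ps, a long noncoding RNA gene. Sdha, Cyc1, Cycs, Cyct, Ndufab1 and Atpif1 belong to the same machinery but fall outside the naming pattern and were followed separately.

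Polyadenylated RNA of primary macrophages of strain C57BL/6J, derived from bone marrow, was sequenced in 3 libraries. All 3 carry the same treatment label, 100 ng/ml lipid A for 0 minutes, lipid A being the part of bacterial lipopolysaccharide that activates macrophages, so they form 1 group with no second condition. The libraries were made from 1 µg of RNA each with a size range of 250 to 400, and are called biological replicates 1, 2 and 3. The labels give separate biosamples but a single donor record, sex and age were not collected, and nothing says that the cultures came from separate animals, so every spread and p-value below measures only the spread between these libraries, which may be technical. Genotype is given only by the strain.

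Depth was 27946070 expected counts in replicate 1, 29779410 in replicate 2 and 53447437 in replicate 3. All 8 macrophage markers (Cd68, Adgre1, Csf1r, Tyrobp, Lyz2, Itgam, Mertk and Spi1) stood above 1 TPM, a level corrected for transcript length and library size, in all libraries. Their median was 707 TPM. Markers of T and NK cells (4), B cells (3), red cells (3), muscle and heart (5), brown fat (2) and germ cells (3) were below 1 TPM in every library. Of 5 neutrophil markers, S100a8 and S100a9 were detected in every library, Mpo reached 1.98 TPM in replicate 3, Elane stayed below 1 TPM and Ly6g was listed at 0. Pecam1 and Cdh5, markers of endothelium, reached 1.08 and 1.89 TPM in replicate 3, while Col1a1 and Pdgfra stayed below 1 TPM. Replicate 3 stood apart in mitochondrially encoded transcripts, at 6.65% of counts against 1.75% and 2.07% in replicates 1 and 2, and replicate 1 in ribosomal RNA, at 9.84% against 2.05% and 2.84% in replicates 2 and 3.

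The respiratory chain sits in the inner mitochondrial membrane. Complex I takes electrons from NADH and complex II from succinate, and both hand them to ubiquinone. Complex III passes them to cytochrome c and complex IV to oxygen, and the proton gradient that complexes I, III and IV build drives complex V, the ATP synthase. Complexes I, III, IV and V are built from subunits of both genomes, complex II from nuclear ones alone. In macrophages this chain is known to be adjusted during activation, when the cells shift their energy supply towards glycolysis.

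Nearly all members were expressed in these resting cells. At 1 TPM or more in every library stood 76 of the 84 members, against 44.8% of all 22028 protein-coding genes. The median over all 84 members of the mean level was 114 TPM, and the medians in replicates 1, 2 and 3 were 146, 129 and 64.3 TPM. By mean level, 12 members stood at 300 TPM or more, 35 between 100 and 300, 21 between 50 and 100, 6 between 10 and 50, 3 between 1 and 10, 3 above 0 and below 1, and 4 were at 0. Together they took 0.510% of all counts in replicate 1 (95% Wilson interval 0.507 to 0.512), 0.452% in replicate 2 (0.449 to 0.454) and 0.348% in replicate 3 (0.346 to 0.349). Because the transcripts are short, their share of TPM was larger, at 1.48%, 1.34% and 0.843%. Replicate 3 was the lowest of the libraries on both scales.

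Complex I had the lowest median level in every library. Complex V had the highest with all genes of complex IV counted, and complex IV the highest without its 8 tissue-restricted forms. The median over subunits was 98.6, 94.6 and 56.3 TPM for complex I in replicates 1, 2 and 3, and 234, 215 and 116 TPM for complex V. Complex III had 210.4, 184 and 91.4 TPM, so it lay between them in each library. Complex II stood at 115, 128 and 67.9 TPM. Complex IV stood at 178, 135 and 63.6 TPM over all its genes, and at 322, 329 and 149 TPM without the tissue-restricted forms. The medians of the mean level were 76.5 TPM for the 35 subunits of complex I, 100 TPM for the 3 of complex II, 157 TPM for the 8 of complex III, 136 TPM for the 19 genes of complex IV and 209 TPM for the 18 of complex V. Cox7a2l, a factor of supercomplexes, was counted in no complex. Without those forms, the median of complex IV over the other 11 genes was 266 TPM. The differences between complexes were not tested, since genes of a complex are not replicates.

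**Figure D1:**
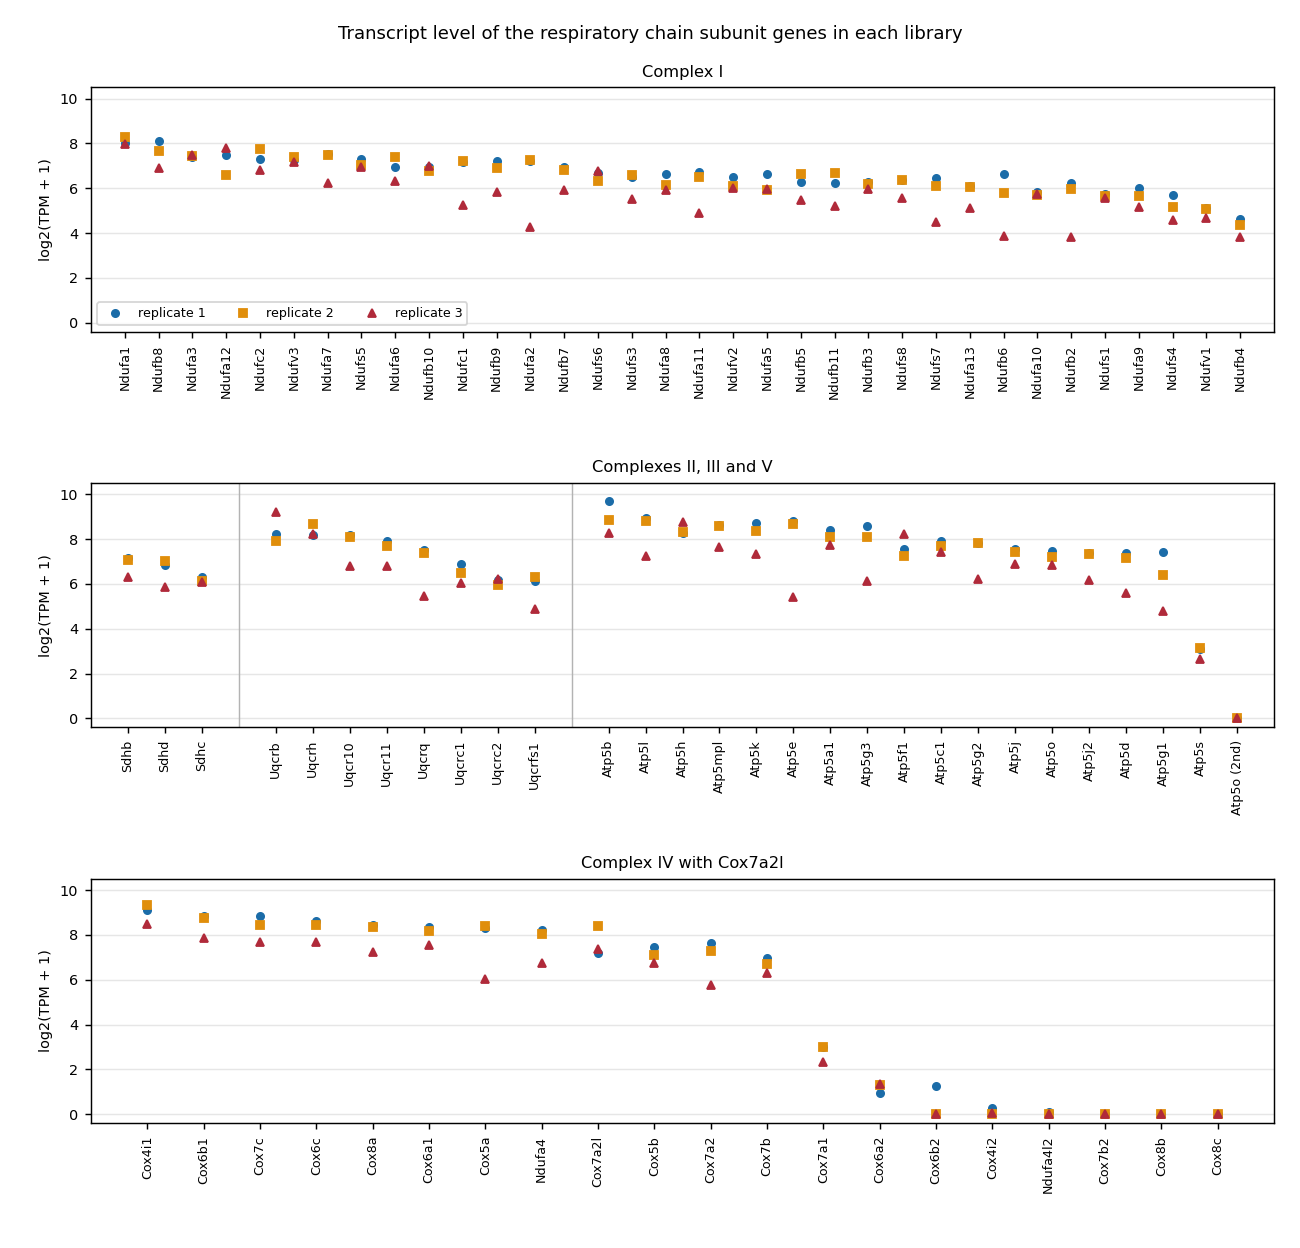
Level of 83 of the 84 members on the log2(TPM + 1) scale (vertical axis) in replicates 1 (circles), 2 (squares) and 3 (triangles), ordered by mean within each complex. Most members lie between 50 and 300 TPM, the tissue-restricted forms of complex IV lie at the bottom right, and the triangles of replicate 3 are often the lowest point.

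Within complex I, the 7 core subunits that carry the flavin and the iron-sulfur clusters had a median of 69.2 TPM and the 28 accessory subunits a median of 97.0 TPM. Among the core genes, Ndufs3 had 90.8, 95.1 and 45.5 TPM in replicates 1, 2 and 3 and Ndufv2, an iron-sulfur subunit, had 90.7, 67.1 and 63.9 TPM. The lowest core gene was Ndufv1, which binds NADH and the flavin, with 33.5, 32.8 and 24.5 TPM. Replicate 3 was the lowest for each of these 3 genes.

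Among the accessory subunits Ndufa1 was the highest, with 256, 312 and 249.7 TPM (mean 273 ± 34.0, SD, n = 3). Ndufb8 had 275, 199.8 and 119 TPM, with replicate 3 the lowest. Ndufa3 was almost level at 169, 175 and 177 TPM. The lowest was Ndufb4, with 23.6, 19.8 and 13.1 TPM (mean 18.8 ± 5.31). Its processed pseudogene Ndufb4c on chromosome 15, which shares 38.3% of the member's 31-base words, had 217, 165 and 216 TPM in the same libraries. The pseudogene entry was therefore far above the parent gene in each library, and it was so in the kallisto-format table too, with 140, 111 and 162 TPM against 16.2, 14.1 and 12.1 TPM.

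In complex II, which also serves the citric acid cycle, the iron-sulfur subunit gene Sdhb had 143, 132 and 79.1 TPM. The membrane anchor genes Sdhd and Sdhc had 115, 128 and 56.7 TPM and 79.2, 68.8 and 67.9 TPM. The flavin subunit gene Sdha, outside the naming pattern, had 119, 134 and 137 TPM (mean 129.9 ± 9.59). Sdha was thus the highest of the 4 genes in replicates 2 and 3, and second to Sdhb in replicate 1.

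In complex III, Uqcrb, the ubiquinone-binding subunit, had 298, 242 and 585 TPM, and replicate 3 stood above both others. The hinge subunit gene Uqcrh had 287, 408 and 302 TPM and Uqcr10 had 293, 275 and 112 TPM. The lowest member was Uqcrfs1, the Rieske iron-sulfur protein, with 69.4, 79.0 and 28.6 TPM. Cyc1, the cytochrome c1 of the same complex, is outside the pattern and had 77.0, 43.9 and 14.8 TPM.

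Complex IV was led by Cox4i1, a subunit involved in regulation by ATP (ENSMUSG00000031818.12, chr8:120668222-120674207, plus strand, mm10), with 552, 653 and 361 TPM (mean 522 ± 148, SD, n = 3). Cox6b1, a subunit facing cytochrome c, had 465, 426 and 234 TPM and Cox7c had 454, 347 and 205 TPM. Replicate 3 was the lowest for each of these 3 genes.

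Several complex IV subunits exist as a broadly expressed form and a form largely restricted to muscle, lung, testis or brown fat. These macrophages used the broadly expressed form of each pair almost alone. Cox7a1, the heart and muscle form of subunit VIIa, was the restricted form with the highest level, at 7.11, 7.04 and 3.99 TPM, beside 198, 155 and 54.2 TPM of Cox7a2. Cox7a2 thus made up 95.1% ± 1.77 (SD, n = 3) of the pair. Cox6a2, the heart and muscle form of VIa, had 0.90, 1.45 and 1.53 TPM against 322, 291 and 186 TPM of Cox6a1, a share for Cox6a1 of 99.5% ± 0.271.

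Cox4i2, a form known from lung, had 0.23, 0 and 0.05 TPM from 2, 0 and 1 counts, and Cox4i1 made up 99.98% of that pair. Cox6b2, a testis form, had 1.39 TPM from 5 counts in replicate 1 and was listed at 0 in the others, and Cox6b1 made up 99.9%. Ndufa4l2, a paralog known to be induced in low oxygen, had 1 count in replicate 1 and none in replicates 2 and 3, beside 300, 264 and 106 TPM of Ndufa4, now counted as a subunit of complex IV. Cox7b2, Cox8b and Cox8c had 0 counts in every library, which allows up to 0.107, 0.101 and 0.0561 CPM (counts scaled to library totals) in replicates 1, 2 and 3. Their partners Cox7b, at 124, 104 and 77.1 TPM, and Cox8a, at 343, 329 and 149 TPM, were thus the detected forms. The markers Myh6, Myh7, Actc1, Ckm and Acta1 of muscle and heart were below 1 TPM, as were Ucp1 and Cidea of brown fat.

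**Figure D2:**
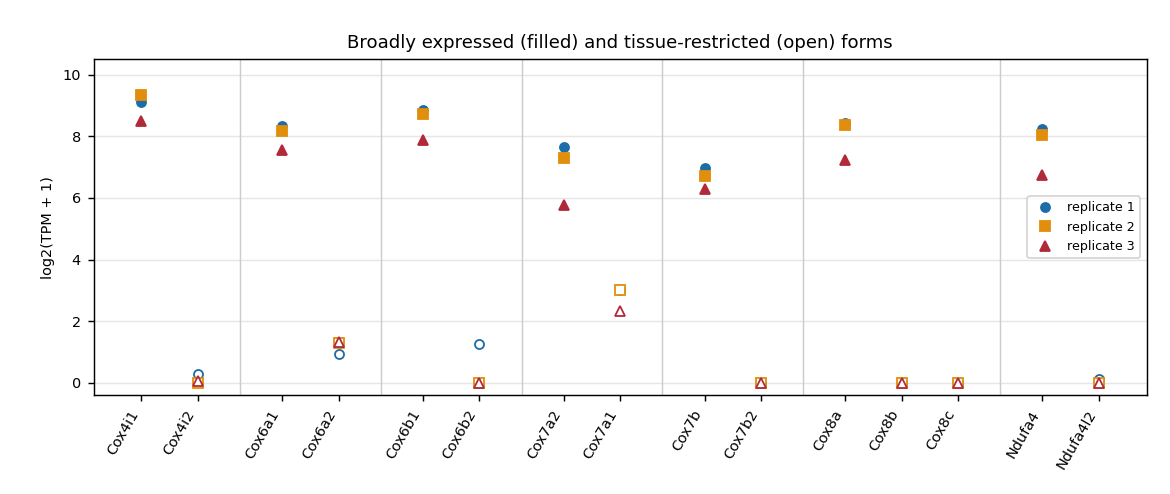
Levels of the broadly expressed (filled) and tissue-restricted (open) forms of 7 complex IV subunits, as log2(TPM + 1) for each of the 3 libraries. Every restricted form lies far below its partner, with Cox7a1 at 3.99 to 7.11 TPM the highest of them.

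The start regions of 2 pairs, Cox7a2 with Cox7a1 and Cox8a with Cox8b, are shown first, chosen with their values in view because the broadly expressed form holds more CpG dinucleotides in both. The windows run from 250 bases before to 50 after the start in the RefSeq table (build GRCm38.p6), 5′ to 3′ on the gene's strand. Capitals mark matches, on either strand, to the core bound by NRF1, which leaves its sixth base free, or to CCGGAA (ETS factors such as GABP), AANATGGC (YY1), GGGCGG (SP1) or TATAAA (the TATA box). The broadly expressed Cox7a2 has its window at chr9:79759804-79760103 (minus strand) and holds 20 CpG dinucleotides and matches to CCGGAA and GGGCGG. The restricted Cox7a1, at chr7:30183921-30184220 (plus strand), holds 7 CpG and no match to any of the 5 motifs. Cox8a, at chr19:7217567-7217866 (minus strand), holds 19 CpG and 3 matches to CCGGAA near its start. Cox8b, at chr7:140900397-140900696 (minus strand), holds 2 CpG and a TATAAA.
Cox7a2: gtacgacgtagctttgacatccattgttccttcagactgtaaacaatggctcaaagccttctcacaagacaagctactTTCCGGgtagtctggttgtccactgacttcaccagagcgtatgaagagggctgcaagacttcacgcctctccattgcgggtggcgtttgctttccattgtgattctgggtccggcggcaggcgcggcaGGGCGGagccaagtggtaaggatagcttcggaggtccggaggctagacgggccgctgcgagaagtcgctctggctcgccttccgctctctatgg
Cox7a1: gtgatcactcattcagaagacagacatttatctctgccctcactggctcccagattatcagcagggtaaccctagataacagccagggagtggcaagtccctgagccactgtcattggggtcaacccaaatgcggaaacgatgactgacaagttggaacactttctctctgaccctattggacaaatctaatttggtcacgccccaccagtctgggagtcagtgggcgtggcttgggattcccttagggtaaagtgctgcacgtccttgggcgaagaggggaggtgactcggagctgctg
Cox8a: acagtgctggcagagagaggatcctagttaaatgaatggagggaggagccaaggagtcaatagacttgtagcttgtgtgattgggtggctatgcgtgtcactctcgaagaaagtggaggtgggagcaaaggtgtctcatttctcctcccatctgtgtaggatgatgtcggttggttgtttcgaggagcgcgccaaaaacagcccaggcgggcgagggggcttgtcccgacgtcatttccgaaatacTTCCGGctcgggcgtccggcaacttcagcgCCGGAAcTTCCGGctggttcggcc
Cox8b: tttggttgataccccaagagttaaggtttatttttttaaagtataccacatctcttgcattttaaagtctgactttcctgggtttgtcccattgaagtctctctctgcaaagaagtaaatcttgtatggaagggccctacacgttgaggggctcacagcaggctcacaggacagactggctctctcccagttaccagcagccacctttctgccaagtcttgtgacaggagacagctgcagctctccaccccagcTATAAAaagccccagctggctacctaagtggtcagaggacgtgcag
The other two pairs with both windows in the table differed from each other. Cox7b holds 5 CpG at a GC content of 43.3% and its restricted form Cox7b2 holds 10 at 48.7%, so the order is reversed there. Cox6b1 holds 17 CpG at 53.0% and Cox6b2 holds 10 at 55.7%. Of the restricted forms, only Cox7a1, Cox8b, Cox7b2 and Cox6b2 are in the table, and none of these 4 windows holds the NRF1, ETS or YY1 core. This is a description of letters in these windows and says nothing of factor binding.

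By mean level in the RSEM-format table, complex V held the most abundant member. Atp5b, the catalytic beta subunit (ENSMUSG00000025393.12, chr10:128083273-128090391, plus strand, mm10), had 832, 467 and 313 TPM (mean 538 ± 266, SD, n = 3). Atp5l, subunit g of the membrane part, had 488, 441 and 153 TPM, and Atp5h, subunit d of the peripheral stalk, had 304, 318 and 429 TPM. The order at the top was not firm: Atp5b was above Cox4i1 in replicate 1 and below it in replicates 2 and 3. In the kallisto-format table Cox4i1 was above Atp5b in every library, with 431, 513 and 328 TPM against 402, 255 and 279 TPM. Atp5s, named after the coupling factor B, was the lowest member of complex V with counts, at 7.62, 7.82 and 5.37 TPM. The second Atp5o entry (ENSMUSG00000116933.1), which shares 94.0% of its words with other genes, had 0 counts in every library, while the main Atp5o entry, the stalk subunit OSCP, had 177, 145 and 114 TPM.

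Subunit c, whose ring turns in the membrane, is made as the same mature protein from 3 genes. In the RSEM-format table Atp5g1 had 169, 82.8 and 26.8 TPM, Atp5g2 had 228, 224 and 74.7 TPM and Atp5g3 had 385, 270.0 and 69.8 TPM. Atp5g3 was the highest in replicates 1 and 2, and Atp5g2 in replicate 3. The mean shares of Atp5g1, Atp5g2 and Atp5g3 were 17.2% ± 3.88, 37.2% ± 7.35 and 45.6% ± 4.35 (SD, n = 3). The kallisto-format table gave shares of 26.7% ± 3.62, 4.07% ± 0.187 and 69.3% ± 3.53 from the same reads. The share of Atp5g2 therefore depended on the table.

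Across all members, motif counts were set beside those of other genes. A RefSeq window was found for 67 of the 84 members, the one nearest to the gene's annotated start. The NRF1 core was present in 22.4% of them, against 4.60% of all 32851 windows in the table and 11.1% of the 10162 windows of protein-coding genes at 1 TPM or more. The ETS core was present in 37.3% (14.9% and 30.1%) and the YY1 core in 22.4% (6.05% and 9.28%). At least 1 of these 3 was present in 46 of the 67 windows, or 68.7%, against 22.5% of all windows and 42.7% of those of expressed genes. GGGCGG was present in 41.8% (35.7% and 63.4%) and TATAAA in 10.4% (13.6% and 6.80%). Matches of different motifs overlapped in 1 of the 67 windows. These shares were not tested, and windows of expressed genes held a median of 21 CpG against 19 for members and 7 for all windows.

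Windows that show the NRF1 and YY1 cores in abundant members follow. Cox6a1, at chr5:115348909-115349208 (minus strand), holds 2 NRF1 cores, an ETS core and 2 matches to GGGCGG. Atp5h, at chr11:115419870-115420169 (minus strand), holds an NRF1 and an ETS core, and Atp5g3, at chr2:73911277-73911576 (minus strand), an NRF1 core shortly after its start. Atp5b, at chr10:128083057-128083356 (plus strand), holds the YY1 core, here read on the opposite strand as GCCATGTT, and 2 matches to GGGCGG.
Cox6a1: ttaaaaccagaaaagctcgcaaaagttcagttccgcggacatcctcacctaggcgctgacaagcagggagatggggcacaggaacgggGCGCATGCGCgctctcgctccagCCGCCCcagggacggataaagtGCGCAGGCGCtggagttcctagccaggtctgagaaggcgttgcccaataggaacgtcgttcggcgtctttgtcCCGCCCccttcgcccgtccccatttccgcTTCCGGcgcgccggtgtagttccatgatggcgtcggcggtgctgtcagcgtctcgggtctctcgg
Atp5h: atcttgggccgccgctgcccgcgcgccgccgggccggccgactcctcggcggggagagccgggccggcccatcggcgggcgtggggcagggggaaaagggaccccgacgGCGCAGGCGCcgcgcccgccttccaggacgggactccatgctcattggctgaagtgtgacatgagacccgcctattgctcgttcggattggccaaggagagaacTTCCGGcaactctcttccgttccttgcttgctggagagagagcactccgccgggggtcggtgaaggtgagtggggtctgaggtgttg
Atp5g3: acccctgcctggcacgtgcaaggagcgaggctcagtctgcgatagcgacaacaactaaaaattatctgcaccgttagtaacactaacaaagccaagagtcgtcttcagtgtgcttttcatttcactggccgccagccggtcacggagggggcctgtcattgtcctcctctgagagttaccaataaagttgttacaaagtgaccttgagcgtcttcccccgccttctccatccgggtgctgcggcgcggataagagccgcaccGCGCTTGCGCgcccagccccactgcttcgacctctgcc
Atp5b: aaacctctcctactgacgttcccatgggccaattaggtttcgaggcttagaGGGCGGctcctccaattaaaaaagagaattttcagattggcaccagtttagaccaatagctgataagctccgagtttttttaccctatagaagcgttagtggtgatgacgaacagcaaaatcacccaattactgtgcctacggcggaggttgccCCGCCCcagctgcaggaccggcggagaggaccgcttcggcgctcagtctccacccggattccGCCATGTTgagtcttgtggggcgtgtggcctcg
Among members at 1 TPM or more, those with an NRF1 core had a median level of 124 TPM (n = 15) and those without of 131 TPM (n = 49). With and without the ETS core the medians were 145 (n = 25) and 119 TPM (n = 39), and with and without the YY1 core 102 (n = 15) and 140 TPM (n = 49).

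The members' genes lie on 19 chromosomes, with the most on chromosome 7 (8 genes). A protein-coding neighbour on the opposite strand starts within 1000 bases of 23 of 83 members, or 27.7%, against 13.5% of 9870 expressed protein-coding genes. Such pairs include Ndufa7 with Rps28, a ribosomal protein gene, Sdhd with Timm8b, a mitochondrial import gene, and Ndufs6 with Mrpl36, a mitochondrial ribosomal protein gene. These pairs were chosen after their values were seen. Member transcripts are short. The median length was 693.5 bases and the median coding length 393 bases, with 4 exons, against 2720 bases, 1293 bases and 8 exons for the protein-coding genes tested.

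The libraries differed in the level of the members, and this difference was shared by all 5 complexes. On counts scaled by TMM factors, which align the bulk of genes, the median log2 ratio of a library to the geometric mean of the others was 0.39 in replicate 1, 0.13 in replicate 2 and -0.46 in replicate 3 over the 76 members with enough counts, and 0.00, 0.00 and 0.01 over all 11886 genes tested. Without replicate 3 the median was 0.20 in replicate 1 and -0.20 in replicate 2, without replicate 2 it was 0.56 in replicate 1, and without replicate 1 it was 0.45 in replicate 2. Replicate 3 was the lowest library for 51 of the 76 members (background 32.8% of all genes tested), and replicate 1 the highest for 52 (background 34.7%). Replicate 1 was the lowest for 6 (background 34.4%), and replicate 2 was the highest for 12 (background 32.4%) and the lowest for 19 (background 32.8%). More than 2-fold below the geometric mean of the others in replicate 3 were 17 members (background 7.84%) and more than 2-fold above it 2 (background 6.05%). The medians in replicate 3 were -0.47 for complex I, -0.61 for complex II, -0.47 for complex III, -0.44 for complex IV and -0.59 for complex V. Lowest in replicate 3 were 22 of 35 genes in complex I, 3 of 3 in complex II and 5 of 8 in complex III. In complex IV it was 11 of 12 genes and in complex V 10 of 17. In complex I, 9 genes were highest in replicate 3. On the log2(TPM + 1) scale the same median was -0.81 against -0.23 for all genes. In bulk RNA, fewer cells of a type and less RNA per cell cannot be told apart.

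**Figure D3:**
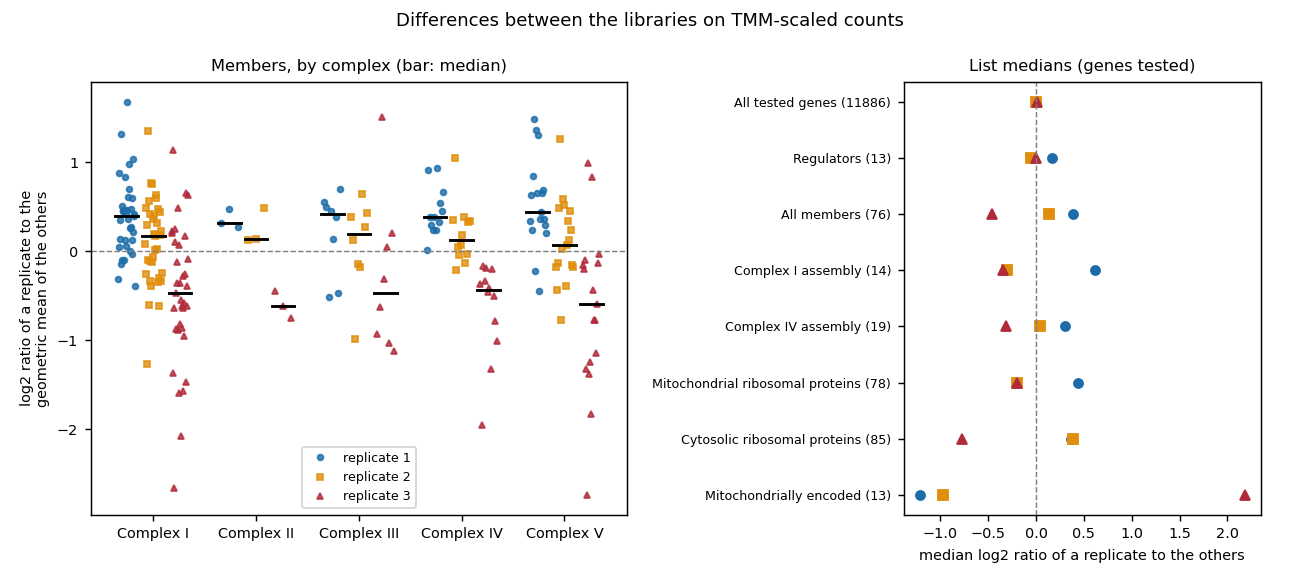
Left, log2 ratio of each library to the geometric mean of the others for each member, by complex, with the median as a bar. Right, medians of the same ratio for gene lists, with the number of genes tested. Members lie below 0 in replicate 3 at a median of -0.46, cytosolic ribosomal protein genes at -0.77 and mitochondrially encoded genes at 2.18.

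Replicates 1 and 2 were close to each other for these genes. The difference between them, replicate 2 minus replicate 1 on the log2 scale, had a median of -0.20 with an SD over members of 0.32, where the SD over all genes tested was 0.92. Only 1 of the 76 members, Cox7a2l, differed by more than 2-fold between replicates 1 and 2 (background 20.0%). Between replicates 1 and 3 there were 18 (background 21.1%) and between replicates 2 and 3 there were 19 (background 18.9%). The closeness of replicates 1 and 2 was not particular to the members. Over 2-fold apart there were 0 of 85 cytosolic and 7 of 78 mitochondrial ribosomal protein genes. Among assembly factors it was 0 of 14 for complex I and 0 of 19 for complex IV, and among regulators 2 of 13. The background genes also had a far lower median level, 14.9 TPM. Cox7a2l, which helps to join complexes III and IV into supercomplexes, had 147, 340 and 163 TPM, so replicate 2 stood above both others. In log2 terms its difference between replicates 2 and 1 was 1.19.

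Single members varied far more than the median. Atp5e, the small epsilon subunit in the stalk of the ATP synthase, had 450.0, 411 and 42.4 TPM, a log2 ratio of -2.74 in replicate 3. Ndufa2, an accessory subunit of complex I, had 148, 153 and 18.1 TPM (-2.67), and Ndufb6 had 98.2, 54.8 and 13.6 TPM (-2.08). Cox5a, a nuclear subunit of complex IV on the matrix side, had 315, 339 and 63.6 TPM (-1.95), and Atp5g3, described above, stood at -1.83. In these 5 genes replicates 1 and 2 both lay above replicate 3.

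A few members went the other way. Uqcrb stood at a log2 ratio of 1.51 in replicate 3. Ndufa12, an accessory subunit of complex I chosen here after its values were seen, had 178, 94.6 and 223 TPM and a ratio of 1.14. Atp5f1, subunit b of the peripheral stalk, had 189, 149.6 and 299 TPM (0.99), and Atp5h stood at 0.83. Replicate 3 was the highest library for each of these 4 genes and for 12 of the 76 members in all (background 32.9%).

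With 1 group, the test available was whether a gene varied more between libraries than genes of like abundance. In edgeR's quasi-likelihood fit with an intercept only, an upper-tail F test with Benjamini-Hochberg adjustment at 0.05 called 0 of the 76 members and 0 of 11886 genes (0%), with a smallest adjusted p of 0.97. At an unadjusted p below 0.05 stood 6 members, namely Atp5e, Ndufa2, Cox5a, Atp5g3, Ndufb6 and Uqcrb, and 545 genes in all (4.59%). The median spread over the prior was 0.872 for members and 0.804 for all genes. Without replicate 3 it was 0.194 for members and 0.537 for all genes. Without replicate 1 it was 0.996 against 0.542, and without replicate 2 it was 0.929 against 0.444. At an unadjusted p below 0.05 in the same F test stood 0 of 76 members and 625 of 12203 genes without replicate 3. Without replicate 1 the counts were 6 of 77 and 558 of 12570. Without replicate 2 they were 11 of 77 and 778 of 12517. DESeq2 marked 0 members and 9 genes in all as dispersion outliers.

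Other gene lists differed between the same libraries. The 13 mitochondrially encoded subunit genes, the partners of the members in complexes I, III, IV and V, had a median log2 ratio of 2.18 in replicate 3, and 11 of 13 were highest there. mt-Nd1 had 3649, 3316 and 16338 TPM, whereas mt-Co3 had 857, 364 and 32.2 TPM. Cytosolic ribosomal protein genes, short and abundant like the members, stood at -0.77 in replicate 3, with 69 of 85 lowest there. Mitochondrial ribosomal protein genes stood at -0.20 and regulators of mitochondrial biogenesis at 0.00. Neutrophil markers stood as far apart: the sum of the 5 was 153, 32.6 and 268 TPM in replicates 1, 2 and 3. The median log2 ratio of S100a8 and S100a9, the only 2 tested, was -2.81 in replicate 2 and 2.23 in replicate 3. S100a9 had 86.9, 20.1 and 183 TPM. In replicate 1 the ribosomal RNA share was the highest, as given above. The part of these library differences in the members' values was not tested.

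Length and base composition moved with the replicate 3 ratio as well. Members with a GC content under 45% had a median of -0.03 (n = 7), and those with 55% or more a median of -0.62 (n = 23). The protein-coding genes tested ran from 0.16 (n = 2618) to -0.32 (n = 2582) over the same bins. Spearman's rho between GC content and the ratio was -0.29 over 76 members and -0.30 over 10907 protein-coding genes, values across genes that share the same libraries. By length, members under 500 bases stood at -0.70 (n = 12) and those from 1000 to 1500 bases at -0.40 (n = 12). Protein-coding genes in those bins stood at 0.00 (n = 196) and -0.13 (n = 1132). Their part in the difference between libraries was not tested.

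Most members were expressed from a single transcript. The most abundant transcript made up a median of 96.4% of the gene's TPM over the 76 members at 1 TPM or more, and at least 90% in 49 of them. Transcripts not annotated as protein-coding took a median of 0.878%, and under 5% in 56 of the 76. In 6 members such a transcript was the most abundant in at least 1 library. Ndufa5, an accessory subunit of complex I, was carried by Ndufa5-204, a processed transcript, in every library, with 74.2, 43.5 and 40.5 TPM beside 19.6, 12.2 and 14.2 TPM of its coding Ndufa5-201. Ndufs4, an accessory subunit known from Leigh syndrome, was carried by the nonsense-mediated decay transcript Ndufs4-202 in replicates 1 and 2, with 26.8 and 17.2 TPM, and had 9.72 TPM of it in replicate 3.

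The other four were led by such a transcript in replicate 3 alone in the RSEM-format table, and this held in the kallisto-format table for Ndufc1 only. Atp5f1-203, annotated as subject to nonsense-mediated decay, had 65.8, 53.7 and 253 TPM, and the coding Atp5f1-201 had 122, 93.4 and 42.6 TPM. The high Atp5f1 level in replicate 3 was thus carried by the decay transcript, at 84.7% of the gene there. The kallisto-format table gave that transcript 84.9% in replicate 3, but there it already led narrowly in replicates 1 and 2, with 49.96% and 49.56% against 49.42% and 48.93% of Atp5f1-201. For Atp5j, the coupling factor F6, the retained-intron transcript Atp5j-208 had 39.1, 34.0 and 54.6 TPM against 125, 112 and 51.7 TPM of Atp5j-201. In the kallisto-format table Atp5j-201 still led in replicate 3, with 52.6% against 29.2% of Atp5j-208. The retained intron Ndufc1-203 had 6.02, 19.1 and 15.0 TPM against 109.5, 107 and 13.3 TPM of the coding Ndufc1-204, and took 40.5% of the gene in replicate 3. It led there in the kallisto-format table too, with 37.5% against 31.6%. The retained intron Ndufs1-210 had 2.67, 3.92 and 20.3 TPM, or 44.1% of the gene in replicate 3. The kallisto-format table gave it 12.1% in replicate 3, below the coding Ndufs1-201 at 63.6%.

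Atp5b also differed between libraries in its noncoding transcripts. The coding Atp5b-201 had 523, 325 and 297 TPM, a narrower range than the gene as a whole. The processed transcripts Atp5b-207 and Atp5b-206 had 197, 86.4 and 11.0 TPM and 104.5, 46.5 and 0 TPM. In the kallisto-format table Atp5b-207 had 2.44, 0.315 and 0.795 TPM, so the excess of the gene in replicate 1 was smaller there, with 402, 255 and 279 TPM for the gene. Cox6b1 showed a retained intron, Cox6b1-202, at 31.7% and 34.3% of the gene in replicates 1 and 2 and 0% in replicate 3.

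**Figure D4:**
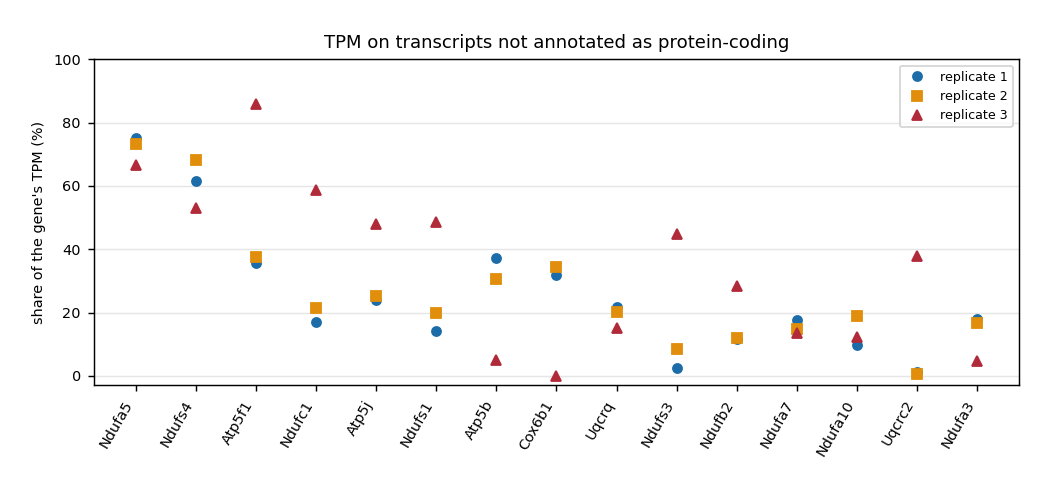
Share of each gene's TPM on transcripts not annotated as protein-coding, in each library, for the 15 members with a mean share of 10% or more and a value in every library. Atp5f1, Ndufc1, Atp5j, Ndufs1, Ndufs3, Ndufb2 and Uqcrc2 are highest in replicate 3, while Atp5b, Cox6b1, Ndufa5, Ndufs4, Uqcrq, Ndufa7 and Ndufa3 are lowest there.

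Genes for respiratory chain subunits have many processed pseudogenes, and reads that match both must be divided. A median of 6.63% of a member's 31-base words also occurred in transcripts of another gene. In 10 members the share was 50% or more and in 26 it was 0%. There were 23 pairs of a member and another gene that shared 20% or more with at least 1 TPM on the other gene, and the other gene was a processed pseudogene in 17 of them. The members in such pairs are uncertain where the counting could split them.

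Both deposited quantifications gave levels within 2-fold of each other for all but 1 of the 76 members. The kallisto-format level was lower by a median log2 ratio of -0.39 for members and -0.24 for all genes tested, and differed by more than 2-fold for 1 of the 76 members (background 2.09%). That member was Atp5g2 (ENSMUSG00000062683.11, chr15:102662864-102672352, minus strand, mm10), with 228, 224 and 74.7 TPM in the RSEM-format table and 16.4, 10.6 and 3.89 TPM in the kallisto-format table. Its copy Gm10175, a transcribed processed pseudogene on chromosome 7, shares 87.7% of the member's words. Gm10175 had 58.9, 66.9 and 13.9 TPM in the RSEM-format table and 208, 218 and 84.8 TPM in the kallisto-format table. The sum of both entries differed less, at 287, 291 and 88.6 TPM against 224, 228 and 88.7 TPM. On log2 of the mean TPM + 1, next came Atp5b, with a ratio of -0.78, and Atp5k, subunit e, with -0.62. Atp5k had 419, 331 and 162 TPM in the RSEM-format table and 261, 211 and 121 TPM in the kallisto-format table. The highest ratios of the kallisto-format to the RSEM-format level were those of Cox6a2 (0.44), Cox4i2 (0.26) and Sdhc (0.04). Cox6a2 and Cox4i2 had means of only 1.29 and 0.0933 TPM in the RSEM-format table.

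Other copies took up many reads. Gm10221, a copy of Atp5l, had 147, 103 and 5.46 TPM in the RSEM-format table and 8.37, 2.30 and 0 TPM in the kallisto-format table. Gm12338, a copy of Cox7c on chromosome 11, had 350.5, 227 and 919.5 TPM in the former and 158, 117 and 243 TPM in the latter. It was highest in replicate 3 in both tables, the library in which Cox7c itself was lowest in both. BC002163, a copy of Ndufs5, had 36.2 TPM in replicate 1 and 1.53 and 3.09 TPM in the others. Uqcrb, Ndufa12, Atp5f1 and Atp5h were the 4 members highest in replicate 3 relative to the others. They shared 58.2%, 59.0%, 46.7% and 60.8% of their words with other genes, a remark made after their values were seen and not tested. Atp5g2, Atp5l, Atp5g1 and the main Atp5o entry shared more, at 87.7%, 85.4%, 67.3% and 63.2%. Their log2 ratios in replicate 3 were -1.24, -1.14, -1.38 and -0.13. Uqcrb, Ndufa12, Atp5f1 and Atp5h were also highest in replicate 3 in the kallisto-format table, where Uqcrb had 213, 178 and 489.9 TPM.

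**Figure D5:**
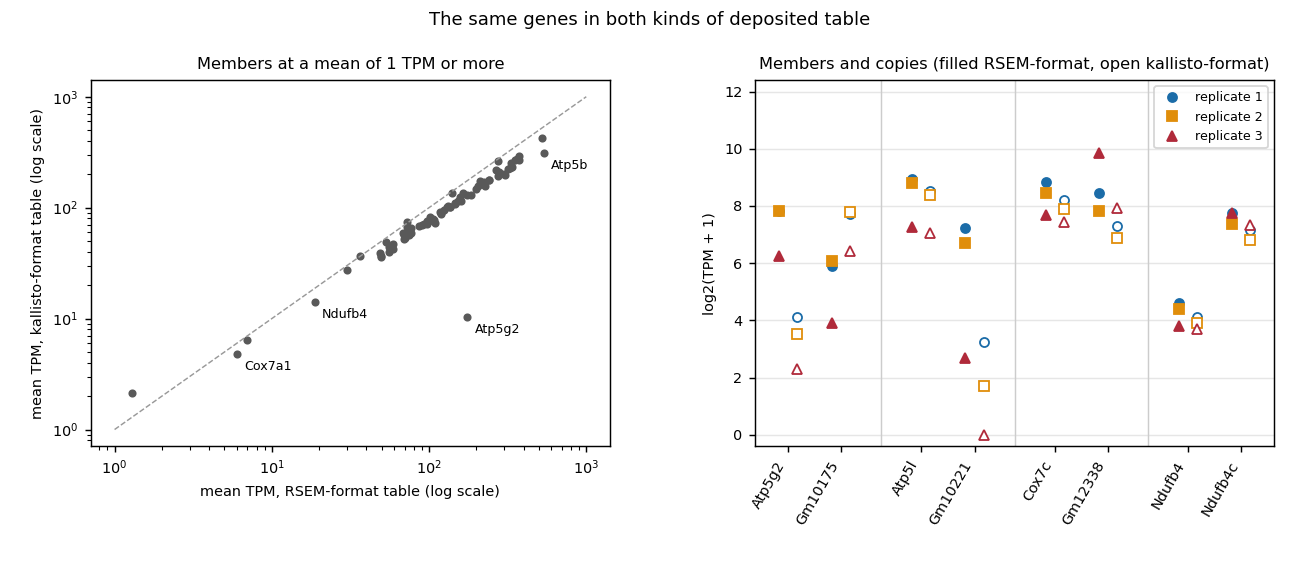
Left, mean TPM of each member at a mean of 1 TPM or more in the RSEM-format (horizontal) and kallisto-format (vertical) table, both on log scales, with a dashed line of equality. Right, log2(TPM + 1) of 4 members and their copies in each library, filled for the RSEM-format and open for the kallisto-format table. Atp5g2 falls from a mean of 176 to 10.3 TPM as Gm10175 rises from 46.6 to 170.0 TPM.

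The genes that assemble the complexes had lower median levels than the subunits, a difference that was not tested. For complex I, 14 of 14 assembly factors reached 1 TPM in all libraries. Their median was 9.79 TPM and the highest level was 36.4 TPM in Tmem126b. For complex II it was 3 of 4 with a median of 13.1 TPM, and Sdhaf2, which attaches the flavin, had 39.7, 40.2 and 39.5 TPM. For complex III it was 5 of 6 with a median of 17.3 TPM, for complex IV 19 of 20 with 17.0 TPM and for complex V 3 of 3 with 16.0 TPM. The copper chaperone gene Cox17 was the highest of all, with 206, 147 and 102 TPM. The edgeR test of spread, which called 0 genes in all, called none of these assembly factors.

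Of 14 regulators of mitochondrial biogenesis, 12 reached 1 TPM in all libraries, and the median was 13.0 TPM. Nrf1, Gabpa and Yy1, whose motifs were counted above, had 9.91 ± 1.82, 20.4 ± 3.18 and 28.5 ± 11.9 TPM (mean ± SD, n = 3). Tfam, which packages mitochondrial DNA, had 23.7 ± 6.60 TPM. Ppargc1a, the coactivator known from brown fat and muscle, had 0.10, 0.02 and 0.02 TPM, and its relative Ppargc1b had 2.38, 1.03 and 0.85 TPM. Pprc1, the third of that family, had 20.3, 11.0 and 11.4 TPM. Among the genes outside the naming pattern, the ATP synthase inhibitor gene Atpif1 had 492, 436 and 507 TPM, a mean level below those of Atp5b and Cox4i1 only among the members. Somatic cytochrome c, Cycs, had 47.8, 18.3 and 46.3 TPM, and its testis form Cyct had 0.14, 0 and 0 TPM.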

How the data were processed

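RNA-seq of 3 macrophage libraries was analysed from the deposited tables. The expected count of each gene, and the posterior mean and kallisto-format estimated count, are read estimates that need not be whole, per the file headers. TPM were deposited by the authors per gene and per transcript, scaled after division by effective length. Score-type bounds of an interval on TPM were deposited as well and were not used in the text. Per the deposited lists the build was mm10 and the annotation GENCODE M21, and transcriptome alignments underlie the RSEM-format tables, whereas the kallisto-format tables came straight from reads. How reads were aligned, program versions and use of strand are not stated in any source used here, so overlapping and antisense genes cannot be told apart.

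Expected counts were rounded. In edgeR 4.0.16, run in R 4.3.3 with limma 3.58.1, the steps were filterByExpr, TMM scaling and glmQLFit in its legacy form with an intercept only, and each gene's quasi-dispersion was set against the prior by an upper-tail F test, adjusted by Benjamini-Hochberg over 11886 genes at 0.05. Scripts were tested on simulated data. Log2 ratios used a prior count of 0.5. Counting error alone is covered by the Wilson intervals (95%) and by the limit of 3 counts that stands for 0 counts. DESeq2 1.42.0 served as an alternative. Other alternatives were kallisto-format and posterior mean values, rescaling to nuclear protein-coding genes, other thresholds, pseudocounts, size factors and filters, shorter promoter windows, and leaving out each library. Shared words are the 31-base words of a member's most abundant protein-coding transcript found in transcripts of other genes. Promoter windows came from a RefSeq table of build GRCm38.p6, matched by symbol or Entrez identifier.

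Values per library are given for the 3 highest and the lowest members of each complex, all paired forms with the subunit c genes and Cox7a2l, the 5 members of largest spread, the 3 most above and below in the kallisto-format table, members led by a noncoding transcript in any library, and the 4 largest log2 ratios. One result this rule would give is not reported here. Any other named gene was picked with its values in view. The members and lists were chosen with earlier results of these data known.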

Additional observations from a re-analysis of the deposited data

How the results depend on the processing

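No paired analysis was possible because all libraries belong to 1 group. The main summaries were levels, detection, shares of counts, log2 ratios and calls of spread. Of 85 recomputed values of these, 84 kept their direction and moved by less than the spread between libraries or kept their call. The exception was the median log2 ratio of members in replicate 2, 0.13 as reported, which was -0.20 without replicate 3 and 0.45 without replicate 1. That of replicate 1, 0.39 as reported, was 0.20 without replicate 3 and 0.56 without replicate 2. In replicate 3 the same median was negative under every setting tried, from -0.43 without a filter to -0.82 on the log2 TPM scale with a pseudocount of 0.1, where all genes stood at -0.28. With library totals as the only scaling it was -0.64, and all genes stood at -0.17. Leaving out a library, the median level of members was 94.4 to 137 TPM. The test of spread called 0 members under every setting. In the main setting it called 0 of all 11886 genes, so the 0 for members does not show that their spread was small. It called 146 genes in all without a filter on low counts and 7 without replicate 2. With kallisto-format values, 18 of the 84 member levels moved by more than their SD over libraries, and with TPM rescaled to nuclear protein-coding genes 23 did. Outside the main summaries, the shares of Cox4i1 and Cox6a1 among their forms also moved by more than their SD with kallisto-format TPM. They went from 99.98% to 99.92% and from 99.47% to 98.98%. The NRF1, ETS, YY1, SP1 and TATA shares in windows of 150 bases were 17.9%, 28.4%, 17.9%, 32.8% and 4.48%, against 3.48%, 10.4%, 3.67%, 28.8% and 6.94% of all windows. Windows of expressed genes held 8.41%, 22.4%, 6.69%, 53.4% and 2.84%, so members stood below them for SP1 and above them for TATA. Depth limits the restricted forms: Cox6b2, Cox4i2 and Ndufa4l2 rest on 5 counts or fewer in any library. Dixon's test was not applied to groups of 3.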
